A study of Mus musculus with 12 samples.

Results

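Genes of glycolysis, of the fate of pyruvate and of the response to low oxygen were described in mouse pancreatic islets, which hold the endocrine cells of the pancreas, across 4 genotypes and array by array. The set named 37 genes. It was taken through the probe sets that carry a single gene symbol in the annotation of the array, with the probe set of the highest mean over the 12 arrays standing for each gene. Of the 37 genes, 33 had such a probe set, and all 33 passed the filter on low levels. They stood among 12825 genes tested, out of 17097 with a probe set of 1 symbol. *Gpi1*, *Pgam1*, *Eno1* and *P4ha1* were not analysed here. No value of these data entered the choice of probe sets beyond the mean over all arrays.

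Islets were taken at 12 weeks of age from mice on standard chow, with 3 arrays in each of 4 groups. The hIAPP-TgxBACE2-KO mice expressed human islet amyloid polypeptide (hIAPP), the peptide that forms islet amyloid, from a transgene and lacked BACE2, an aspartyl protease of beta cells. The BACE2-KO mice lacked BACE2 alone, the hIAPP-Tg mice carried the transgene alone, and WT mice had neither change. The labels give all 4 groups the strain name B6;129P2-Bace2tm1Bdes/J. Nothing used here says which promoter drives the transgene or whether islets of several mice went into an array, so p-values speak only of the spread between arrays, which may be technical.

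Glycolysis splits glucose into pyruvate in the cytosol, and in most cells its genes rise together when oxygen is short, because the transcription factor HIF-1 binds near many of them. HIF-1α, the subunit made by *Hif1a*, is marked for destruction by the prolyl hydroxylases of the *Egln* genes as long as oxygen is present. Beta cells sense glucose through glycolysis: glucokinase in place of the usual hexokinases sets the rate, pyruvate is sent to the mitochondria, and the genes that turn pyruvate into lactate are kept low. Islets lose their blood supply when they are isolated, and their cores are known to become hypoxic.

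The values are log2 expression levels of 1 probe set each, so a difference of 1 is a doubling; levels were not set against each other between genes. The array medians ran from 4.22 to 4.35. The insulin gene *Ins2* lay between 13.93 and 14.03 and was the highest value on every array, at the top of the measured scale. *Gcg* lay between 13.05 and 13.22 and *Sst* between 12.14 and 12.87. The mean of the 7 measured beta cell markers ran from 11.06 to 11.26 in hIAPP-TgxBACE2-KO, 11.28 to 11.34 in BACE2-KO, 10.66 to 11.30 in hIAPP-Tg and 11.25 to 11.43 in WT islets. The brightest of 3 *Bace2* probe sets overlapped between all groups and averaged 10.85 ± 0.17 in hIAPP-TgxBACE2-KO islets, 10.94 ± 0.08 in BACE2-KO islets, 11 ± 0.10 in hIAPP-Tg islets and 11.09 ± 0.16 in WT islets (SD, n = 3 each). On another, all hIAPP-TgxBACE2-KO arrays (7.66 to 7.78) lay below the BACE2-KO (7.82 to 8.0), hIAPP-Tg (7.8 to 8.18) and WT arrays (7.95 to 8.23), and BACE2-KO overlapped WT. Where these probes lie relative to the disrupted part of the gene was not examined, so they do not check the labels, and the groups are called by their labels throughout. Enzyme genes of acinar cells, the exocrine cells that surround islets, were bright on every array, and the mean of 9 such markers ran from 10.24 to 11.17 in hIAPP-TgxBACE2-KO, 10.48 to 11.77 in BACE2-KO, 10.40 to 11.21 in hIAPP-Tg and 9.65 to 12.05 in WT islets. In these bulk samples, fewer cells of a type and less RNA per cell cannot be told apart.

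None of the 33 genes passed the test in any of the 7 comparisons between genotypes (limma, Benjamini-Hochberg adjusted p under 0.05 over the 12825 genes), and few genes of any kind did. With the transgene alone (hIAPP-Tg against WT) 0.0156% of all genes were called, and with loss of BACE2 alone (BACE2-KO against WT) 0.125%. In hIAPP-TgxBACE2-KO islets 0.101% were called against hIAPP-Tg and 0% against BACE2-KO; in that last comparison, limma's smallest adjusted p over all genes was 0.9615 and 569 genes had an unadjusted p under 0.05. Averaged over transgene status, 0.92% of genes were called for BACE2 loss; averaged over BACE2 status, 0.0078% were called for the transgene. The interaction, the difference with the transgene in mice without BACE2 minus that in mice with it, also called 0.0078%. For a pair of groups, the median gene of the set had a 95% interval that reached 0.44 log2 either side of its estimate, so a smaller difference of that gene could not be told from 0 at 3 arrays per group, even before adjustment.

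Most of the set lay on the higher side in the groups with a transgene or without BACE2, by small amounts that carry no test of their own. Of the 33 genes, 23 were higher in hIAPP-Tg than in WT islets, with a median difference of 0.12, beside -0.03 over all genes tested, of which 41.3% were higher. BACE2-KO islets were higher than WT for 23 genes as well, with a median of 0.07, beside 0.01 and 52.2% over all genes. In hIAPP-TgxBACE2-KO islets, 21 genes were higher than in hIAPP-Tg (median 0.07, beside 0.03 and 57.1% of all genes) and 23 were higher than in BACE2-KO (median 0.14, beside -0.01 and 46.1%). These comparisons share arrays, so their counts are not independent of each other. Cell type markers moved beside these medians, with no marker called. In hIAPP-Tg against WT, all 7 beta cell markers were lower (median -0.35), among them *Slc2a2*, the beta cell glucose transporter GLUT2, at 10.87 ± 0.60 in hIAPP-Tg and 11.55 ± 0.11 in WT islets (SD, n = 3 each). In the same comparison, all 5 stellate cell markers tested (median 0.46), 6 of 7 macrophage markers (0.38) and all 6 immediate early genes tested (0.41) were higher. In hIAPP-TgxBACE2-KO against BACE2-KO, all 7 beta cell markers were lower (-0.18), and all 5 stellate cell markers (0.66), 5 of 7 macrophage markers (0.22) and 5 of 6 immediate early genes (0.28) were higher. The mean of the 6 measured stellate cell markers ran from 5.41 to 6.39 in hIAPP-TgxBACE2-KO, 5.09 to 5.31 in BACE2-KO, 5.27 to 5.76 in hIAPP-Tg and 4.66 to 5.54 in WT islets, and that of the 7 macrophage markers from 5.89 to 6.95 in hIAPP-TgxBACE2-KO, 6.02 to 6.38 in BACE2-KO, 6.64 to 6.94 in hIAPP-Tg and 6.12 to 6.29 in WT islets. The part of these cell types in the medians of the set was not tested. In the comparison of hIAPP-TgxBACE2-KO with BACE2-KO, all 9 acinar markers were lower in hIAPP-TgxBACE2-KO islets (median -0.43, none called), and with the acinar marker mean as a covariate the median of the 33 genes was -0.01. The acinar markers went the other way in BACE2-KO against WT, where all 9 were higher (median 0.10). They had 3 higher and 6 lower in hIAPP-Tg against WT (-0.21) and in hIAPP-TgxBACE2-KO against hIAPP-Tg (-0.18). Whether acinar RNA accounts for any of the set's medians was not tested. With 1 array left out at a time, the medians ran from -0.04 to 0.20 for hIAPP-Tg against WT, from -0.07 to 0.21 for BACE2-KO against WT and from -0.02 to 0.23 for hIAPP-TgxBACE2-KO against BACE2-KO.

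**Figure D1:**
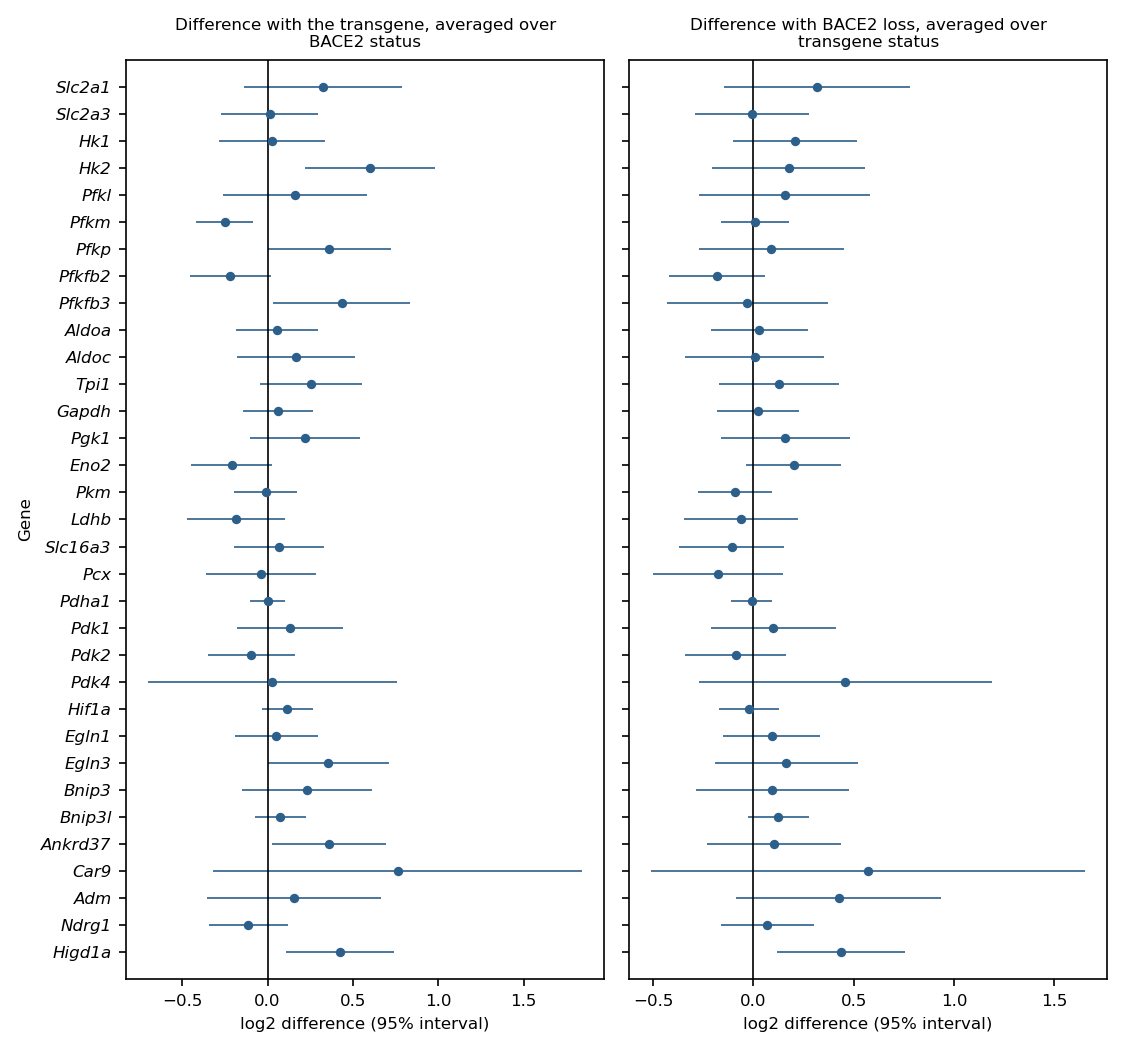
Difference of each of the 33 genes with the hIAPP transgene averaged over BACE2 status (left) and with BACE2 loss averaged over transgene status (right), in log2 units; points are limma estimates, bars are 95% intervals, and the vertical line marks no difference. Intervals clear of 0 on the left include *Hk2* (0.60) and *Pfkm* (-0.25), those of *Higd1a* are clear on both sides (0.42 and 0.44), and no gene passed the test over all genes.

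Of the genes that bring glucose into the cell and phosphorylate it, *Hk2*, a hexokinase of high glucose affinity that mature beta cells hold low, had the smallest p-value of the set. Its level was 5.5, 6.31 and 5.53 in hIAPP-TgxBACE2-KO islets, 4.83, 4.63 and 5.07 in BACE2-KO islets, 5.72, 5.11 and 4.97 in hIAPP-Tg islets and 4.90, 5.27 and 4.85 in WT islets. All hIAPP-TgxBACE2-KO arrays lay above every BACE2-KO and every WT array, and they overlapped the hIAPP-Tg arrays through hIAPP-Tg replicate 1. Against BACE2-KO the difference was 0.94 (SE 0.25, unadjusted p = 0.0025, limma adjusted p = 0.9615), and without hIAPP-TgxBACE2-KO replicate 2, the highest array, it was 0.67. Averaged over BACE2 status, *Hk2* was 0.60 higher with the transgene (SE 0.18, limma adjusted p = 0.644). The interaction was 0.68 (SE 0.35, limma adjusted p = 0.9995).

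The other glucose entry genes overlapped between all groups compared. *Slc2a1*, the glucose transporter GLUT1 and a known HIF-1 target, had levels of 8.16, 8.88 and 8.57 in hIAPP-TgxBACE2-KO, 8.33, 7.91 and 8.33 in BACE2-KO, 8.25, 8.65 and 7.70 in hIAPP-Tg and 7.19, 8.09 and 8.41 in WT islets. The arrays of 1 genotype differed by more than the genotype means, which ran from 7.90 to 8.54. *Hk1*, the housekeeping hexokinase, averaged 5.79 ± 0.15 in hIAPP-TgxBACE2-KO, 5.74 ± 0.24 in BACE2-KO, 5.56 ± 0.19 in hIAPP-Tg and 5.56 ± 0.40 in WT islets (SD, n = 3 each). For *Slc2a3*, the glucose transporter GLUT3, the probe sets went different ways: the interaction was 0.16 on the brightest probe set and -0.08, -0.40 and -0.17 on the others, of which only the second of these had an unadjusted p under 0.05, at 0.046 in limma. The brightest *Slc2a3* probe set averaged 6.78 ± 0.40 in hIAPP-TgxBACE2-KO, 6.69 ± 0.28 in BACE2-KO, 6.71 ± 0.06 in hIAPP-Tg and 6.77 ± 0.02 in WT islets.

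In upper glycolysis, 8 genes were measured, and the 3 phosphofructokinase genes, whose enzyme commits glucose to glycolysis, lay on different sides. *Pfkm*, the muscle-type gene, was 7.87, 8.15 and 8.09 in hIAPP-TgxBACE2-KO islets, 8.47, 8.32 and 8.26 in BACE2-KO islets, 7.91, 8.07 and 8.29 in hIAPP-Tg islets and 8.28, 8.26 and 8.30 in WT islets. Every hIAPP-TgxBACE2-KO array lay below every BACE2-KO and WT array, and 2 of the 3 hIAPP-Tg arrays did too. The difference from BACE2-KO was -0.31 (SE 0.11, limma adjusted p = 0.9615), that of hIAPP-Tg from WT was -0.19 (SE 0.11, limma adjusted p = 0.950), and the average with the transgene was -0.25 (SE 0.08, limma adjusted p = 0.644). *Pfkp*, the platelet-type gene, lay the other way, 0.36 higher with the transgene on average (SE 0.17, limma adjusted p = 0.656). *Pfkl*, the liver-type gene, averaged 8.05 ± 0.30 in hIAPP-TgxBACE2-KO, 7.83 ± 0.37 in BACE2-KO, 7.84 ± 0.32 in hIAPP-Tg and 7.73 ± 0.58 in WT islets (SD, n = 3 each).

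The set held 2 genes for the bifunctional enzymes that set the level of phosphofructokinase's activator, *Pfkfb3* and *Pfkfb2*. *Pfkfb3*, the isoform known as hypoxia-inducible, was 6.37, 6.19 and 5.91 in hIAPP-TgxBACE2-KO islets, 5.58, 5.37 and 5.78 in BACE2-KO islets, 6.63, 5.99 and 5.5 in hIAPP-Tg islets and 5.52, 6.16 and 5.58 in WT islets. The hIAPP-TgxBACE2-KO arrays lay above all BACE2-KO arrays, with a difference of 0.58 (SE 0.26, limma adjusted p = 0.9615), and overlapped both other groups. *Pfkfb2*, the isoform of heart and beta cells, was 6.95, 6.67 and 6.98 in hIAPP-TgxBACE2-KO islets, 6.87, 7.12 and 6.97 in BACE2-KO islets, 7.04, 6.95 and 6.86 in hIAPP-Tg islets and 7.63, 7.0 and 7.17 in WT islets. WT replicate 1 was the highest array. The difference of hIAPP-Tg from WT was -0.32 (SE 0.16, limma adjusted p = 0.950) and -0.14 without that array; BACE2-KO from WT was -0.28 (SE 0.16, limma adjusted p = 0.885) and -0.10 without it. The aldolase genes *Aldoa* and *Aldoc* and *Tpi1*, which makes triosephosphate isomerase, overlapped between all groups compared, and the whole group of 8 ranged from -0.25 to 0.43 with the transgene on average.

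**Figure D2:**
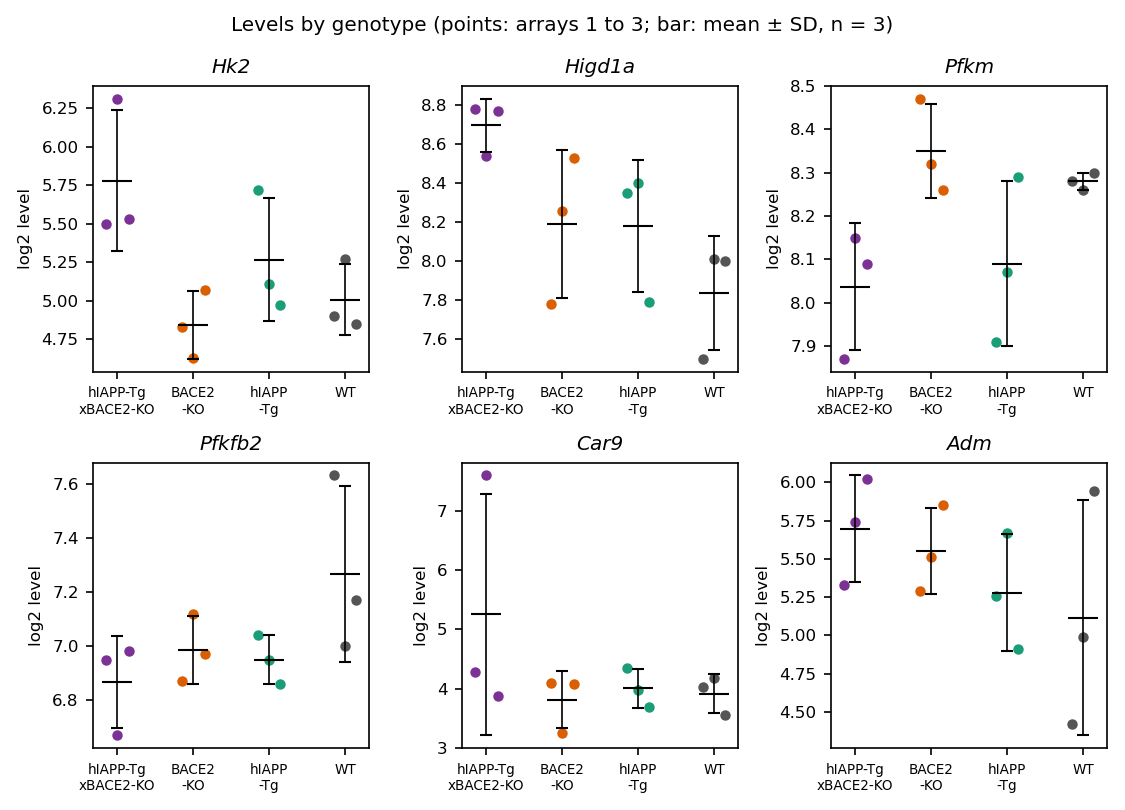
Log2 levels of *Hk2*, *Higd1a*, *Pfkm*, *Pfkfb2*, *Car9* and *Adm* in hIAPP-TgxBACE2-KO, BACE2-KO, hIAPP-Tg and WT islets; points are arrays, bars are means ± SD (n = 3), and each panel has its own scale. *Higd1a* was at 8.54 or higher on all hIAPP-TgxBACE2-KO arrays, just above BACE2-KO replicate 3 at 8.53. The mean of *Car9* in hIAPP-TgxBACE2-KO islets rests on 1 array at 7.59.

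Among the genes of lower glycolysis, which turn triose phosphates into pyruvate and yield ATP, *Pgk1*, phosphoglycerate kinase and a standard HIF-1 target, was 11.41, 11.47 and 11.61 in hIAPP-TgxBACE2-KO islets, 11.36, 11.17 and 11.31 in BACE2-KO islets, 11.41, 11.59 and 11.03 in hIAPP-Tg islets and 10.59, 11.10 and 11.66 in WT islets. The hIAPP-TgxBACE2-KO arrays lay above the BACE2-KO arrays, by 0.22 on average (SE 0.21, limma adjusted p = 0.970), while the WT arrays alone spanned both the lowest and the highest level of all 12. *Gapdh*, often used as a reference gene, averaged 12.33 ± 0.10 in hIAPP-TgxBACE2-KO, 12.32 ± 0.05 in BACE2-KO, 12.36 ± 0.13 in hIAPP-Tg and 12.24 ± 0.33 in WT islets (SD, n = 3 each). *Eno2*, the neuronal and endocrine enolase, was 7.29, 7.62 and 7.60 in hIAPP-TgxBACE2-KO islets, 7.74, 7.51 and 7.80 in BACE2-KO islets, 6.94, 7.54 and 7.34 in hIAPP-Tg islets and 7.38, 7.64 and 7.52 in WT islets. The groups overlapped, and BACE2 loss averaged over transgene status gave 0.20 (SE 0.11, limma adjusted p = 0.533). *Pkm*, pyruvate kinase, had group means between 10.51 and 10.65.

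The genes that decide the fate of pyruvate showed the smallest and some of the largest spreads of the set. *Pdha1*, the catalytic subunit of pyruvate dehydrogenase, had a spread within genotypes of 0.06, and its 3 hIAPP-Tg arrays, at 9.86, 9.82 and 9.81, lay just above the WT arrays, all at 9.80. That difference was 0.03 (SE 0.07, limma adjusted p = 0.973), and 3.39% of all genes were higher in hIAPP-Tg without overlap. *Pdk4*, a kinase that inhibits pyruvate dehydrogenase and is known to rise on fasting, was 6.86, 7.01 and 7.90 in hIAPP-TgxBACE2-KO islets, 5.69, 7.66 and 7.73 in BACE2-KO islets, 5.95, 7.04 and 6.80 in hIAPP-Tg islets and 6.75, 6.52 and 7.04 in WT islets. Its spread within genotypes was 0.72, larger than that of 98.9% of genes tested, and the groups overlapped. *Ldhb*, lactate dehydrogenase B, was 6.88, 6.34 and 6.68 in hIAPP-TgxBACE2-KO islets, 7.18, 6.89 and 6.78 in BACE2-KO islets, 6.95, 6.57 and 6.96 in hIAPP-Tg islets and 7.21, 6.68 and 6.75 in WT islets. Its groups overlapped too, and its interaction was -0.26 (SE 0.26, limma adjusted p = 0.9995). *Pcx* (pyruvate carboxylase), *Slc16a3* (a lactate exporter), *Pdk1* and *Pdk2* overlapped between all groups compared.

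In oxygen sensing, *Hif1a* was 9.81, 9.90 and 9.86 in hIAPP-TgxBACE2-KO islets, 9.72, 9.62 and 9.77 in BACE2-KO islets, 10.04, 9.70 and 9.78 in hIAPP-Tg islets and 9.69, 9.93 and 9.66 in WT islets. The hIAPP-TgxBACE2-KO arrays lay above those of BACE2-KO, with a difference of 0.15 (SE 0.10, limma adjusted p = 0.9615). The HIF-1α protein is controlled mainly by its breakdown, which arrays do not measure. *Egln3*, a prolyl hydroxylase whose own gene is a HIF-1 target, was 4.09, 4.22 and 4.70 in hIAPP-TgxBACE2-KO islets, 4.27, 3.61 and 4.18 in BACE2-KO islets, 4.33, 4.52 and 3.79 in hIAPP-Tg islets and 3.63, 4.06 and 3.76 in WT islets. The hIAPP-Tg arrays overlapped WT, with a difference of 0.40 (SE 0.23, limma adjusted p = 0.950). *Egln1*, the main hydroxylase of HIF-1α, had group means from 8.77 to 8.95.

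Among the 7 measured hypoxia targets, *Higd1a*, a mitochondrial protein induced by hypoxia, was the only one whose hIAPP-TgxBACE2-KO arrays stood above all others, at 8.78, 8.54 and 8.77, against 7.78, 8.26 and 8.53 in BACE2-KO, 8.35, 8.40 and 7.79 in hIAPP-Tg and 7.5, 8.01 and 8.0 in WT islets. It was also the only gene of the set that lay higher without overlap in hIAPP-TgxBACE2-KO than in hIAPP-Tg islets, as 6.56% of all genes did. Its differences were 0.52 from hIAPP-Tg (SE 0.21, limma adjusted p = 0.509) and 0.51 from BACE2-KO (SE 0.21, limma adjusted p = 0.9615). Averaged over transgene status, BACE2 loss gave 0.44 (SE 0.15, limma adjusted p = 0.256), and averaged over BACE2 status the transgene gave 0.42 (SE 0.15, limma adjusted p = 0.644). The 2 single changes lay alike, 0.35 higher in BACE2-KO (SE 0.21, limma adjusted p = 0.908) and 0.34 higher in hIAPP-Tg (SE 0.21, limma adjusted p = 0.950) than in WT. For hIAPP-Tg against WT the 3 *Higd1a* probe sets disagreed, at 0.34, 0.51 and -0.05; for hIAPP-TgxBACE2-KO against hIAPP-Tg they gave 0.52, 0.40 and 0.59.

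*Car9*, a carbonic anhydrase of the cell surface with very low levels in normal tissue apart from some epithelia, was 4.28, 7.59 and 3.88 in hIAPP-TgxBACE2-KO islets, 4.10, 3.26 and 4.08 in BACE2-KO islets, 4.34, 3.98 and 3.69 in hIAPP-Tg islets and 4.02, 4.18 and 3.55 in WT islets. A single array stood out, hIAPP-TgxBACE2-KO replicate 2. The difference from hIAPP-Tg was 1.25 (SE 0.71, limma adjusted p = 0.685) and 0.08 without that array, and the interaction was 1.35 (SE 1.0, limma adjusted p = 0.9995) and 0.18 without it. On the same array the mean of the 4 measured duct markers was 7.28, against 5.89 to 6.80 on the 11 others, the duct keratin *Krt19* was 8.96, against 5.26 to 8.25, and the mean of the 6 stellate cell markers was 6.39, against 4.66 to 5.76. The means of immediate early genes (7.95, against 6.82 to 7.76) and macrophage markers (6.95, against 5.89 to 6.94) were highest there as well. Those of beta, alpha, delta, acinar and endothelial cells were not. *Hk2* was highest on that array too. The part of these markers in either gene's level was not tested.

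*Adm*, adrenomedullin, a vasodilator peptide induced by hypoxia, was 5.33, 5.74 and 6.02 in hIAPP-TgxBACE2-KO islets, 5.29, 5.51 and 5.85 in BACE2-KO islets, 5.26, 5.67 and 4.91 in hIAPP-Tg islets and 4.42, 4.99 and 5.94 in WT islets. The groups overlapped, with WT spanning the widest range, and BACE2 loss averaged over transgene status gave 0.42 (SE 0.24, limma adjusted p = 0.539). *Bnip3l*, a receptor for the removal of mitochondria, was 9.61, 9.64 and 9.64 in hIAPP-TgxBACE2-KO islets, 9.76, 9.42 and 9.67 in BACE2-KO islets, 9.60, 9.66 and 9.44 in hIAPP-Tg islets and 9.31, 9.41 and 9.57 in WT islets. BACE2-KO and WT overlapped at a difference of 0.19 (SE 0.10, limma adjusted p = 0.871). *Bnip3*, *Ankrd37* and *Ndrg1* overlapped between all groups compared; *Ankrd37*, an ankyrin-repeat protein, lay 0.36 higher with the transgene on average (SE 0.15, limma adjusted p = 0.644).

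Counted over the set, 5 genes were higher without overlap in hIAPP-TgxBACE2-KO than in BACE2-KO islets (*Hk2*, *Pfkfb3*, *Pgk1*, *Hif1a* and *Higd1a*), a pattern that 4.09% of all genes had, and *Pfkm* alone was lower without overlap, as 5.59% of all genes were. No gene of the set separated BACE2-KO from WT, where 6.59% of all genes were higher and 6.34% lower without overlap. None was lower without overlap in hIAPP-Tg than in WT (5.77% of all genes) or in hIAPP-TgxBACE2-KO than in hIAPP-Tg (4.57%). An unadjusted p under 0.05 was reached by 4 of the 33 genes in hIAPP-TgxBACE2-KO against BACE2-KO, where 4.44% of all genes reached it, by 6 for the transgene averaged over BACE2 status (7.59%), and by 1 each for hIAPP-TgxBACE2-KO against hIAPP-Tg (8.37%) and for BACE2 loss averaged over transgene status (11.4%). It was reached by 0 in hIAPP-Tg against WT (4.52%), BACE2-KO against WT (6.28%) and the interaction (2.4%).

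The larger pattern lay between arrays of the same genotype, where many genes of the set were high or low together. In hIAPP-TgxBACE2-KO islets, 23 of the 33 genes were lowest on replicate 1 (41.3% of all genes tested were lowest there) and 16 were highest on replicate 3 (32.3%). In BACE2-KO islets, 23 were lowest on replicate 2 (32.6%). In hIAPP-Tg islets, 22 were lowest on replicate 3 (21.3%) and 20 highest on replicate 2 (19.8%). In WT islets, 21 were lowest on replicate 1 (34.5%) and 21 highest on replicate 3 (35.4%). A tie counted for no array. The genes also varied more within genotypes than most: their median within-genotype SD was 0.288, against 0.170 over all genes tested, and 28 of the 33 were above that median.

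**Figure D3:**
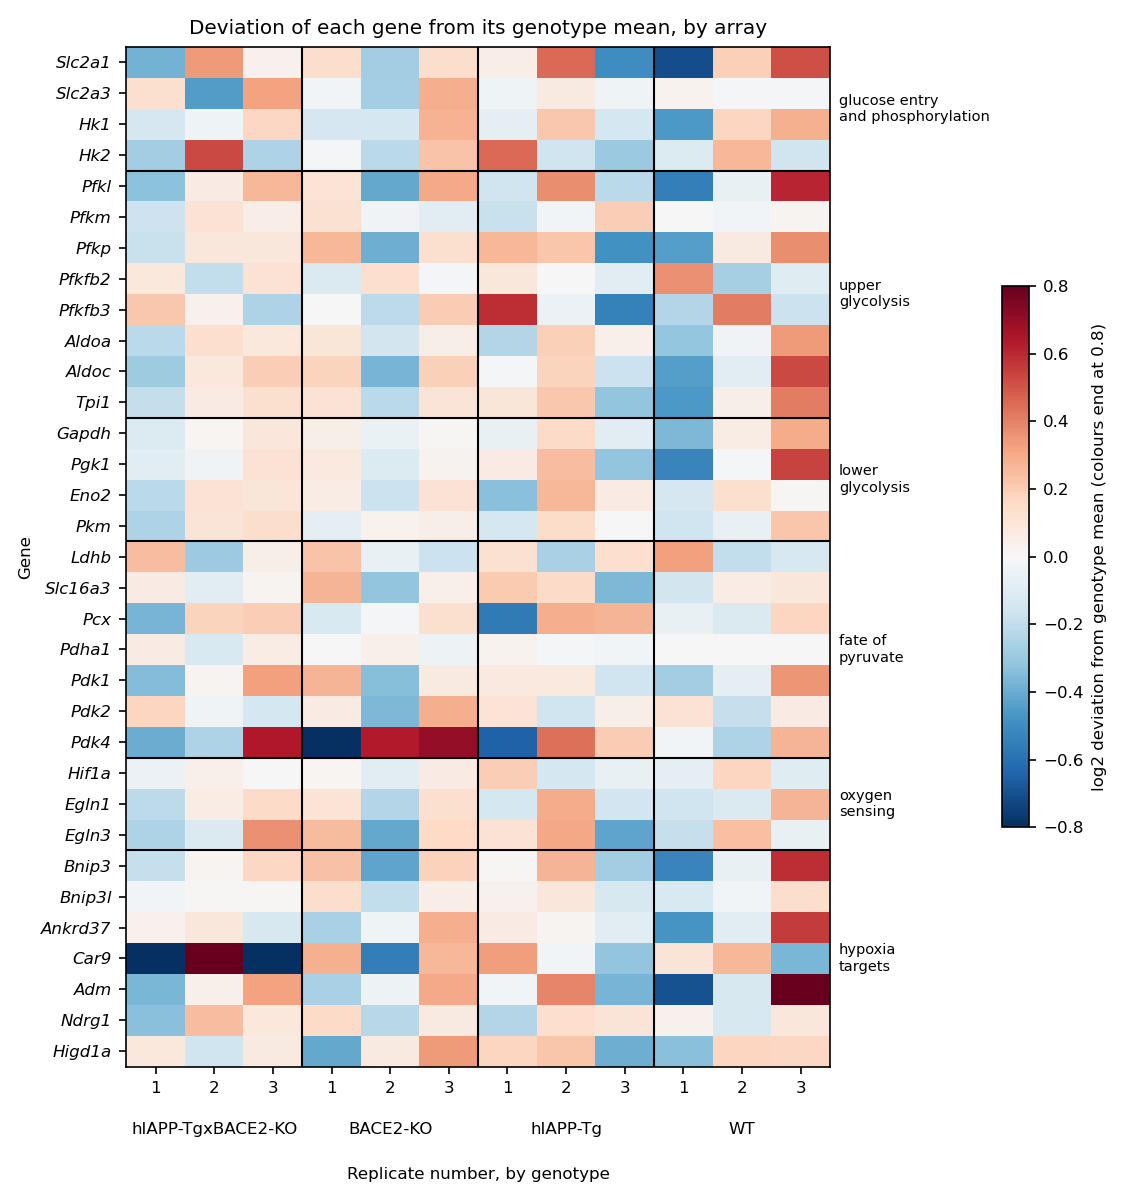
Deviation of each of the 33 genes from its genotype mean on each array, in log2 units (red above, blue below; colours end at 0.8), with genes grouped by role and arrays ordered as hIAPP-TgxBACE2-KO, BACE2-KO, hIAPP-Tg and WT. WT replicate 1 is blue and WT replicate 3 red for most genes from *Slc2a1* to *Adm*, while *Ldhb*, *Pfkfb2* and *Hk2* go their own way.

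*Pgk1* was taken as the yardstick for this pattern, a choice made after its values had been seen. Its deviations from the genotype mean on the 12 arrays ran from lowest on WT replicate 1 to highest on WT replicate 3. Of the 32 other genes, 26 had a positive Pearson r with *Pgk1* over these deviations and 6 a negative one. Their median r was 0.59, against -0.04 over the 12824 other genes tested; after regression on the mean of acinar markers it was 0.33. An r over 0.8 was reached by 9 of the 32, and by 0.405% of the other genes tested, 52 in all. Within-genotype permutations (1296, exact) gave an unadjusted p under 0.05 for 13 of the 32 and for 3.64% of the other genes. No gene passed after Benjamini-Hochberg adjustment over all of them (smallest adjusted p 0.761), and the smallest p that these permutations allow is 0.000772. Over 12824 genes, a few genes at that p could not reach an adjusted p under 0.05. The adjusted values therefore cannot decide about single genes.

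The 9 genes nearest to *Pgk1* came from most steps of the pathway. *Tpi1* led them: it was 10.67, 10.93 and 10.99 in hIAPP-TgxBACE2-KO islets, 10.69, 10.36 and 10.68 in BACE2-KO islets, 10.80, 10.92 and 10.39 in hIAPP-Tg islets and 10.02, 10.53 and 10.89 in WT islets, with r = 0.957 and rho = 0.986 (12 arrays, exact permutation p = 0.000772 for both, the smallest possible, adjusted p = 0.761 for r). *Gapdh* had r = 0.943 and rho = 0.860 (exact permutation p = 0.0108 and 0.00926), with an adjusted p of 0.996 for r. *Bnip3*, a mitochondrial protein that triggers the removal of mitochondria and a standard HIF-1 target, was 10.82, 11.03 and 11.17 in hIAPP-TgxBACE2-KO islets, 11.05, 10.39 and 11 in BACE2-KO islets, 10.96, 11.22 and 10.67 in hIAPP-Tg islets and 10.15, 10.62 and 11.27 in WT islets. Its lowest array in each group was the one on which most of the set was lowest, and its r was 0.925 and rho 0.930 (exact permutation p = 0.000772 for both, the smallest possible, adjusted p = 0.761 for r). *Adm* (r = 0.902), *Slc2a1* (0.881), *Aldoc* (0.877), *Pfkl* (0.874), *Pfkp* (0.857) and *Hk1* (0.808) followed.

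The pattern leaned on the WT arrays without resting on them alone. Leaving out WT replicates 1 and 3, the arrays farthest from the median of the *Pgk1* deviations, r was 0.923 for *Tpi1*, 0.828 for *Bnip3*, 0.812 for *Slc2a1* and 0.791 for *Gapdh*. Of the 9 genes, 4 stayed over 0.8 and 8 over 0.7. *Egln3* had an r of 0.512 on all arrays and 0.860 without those 2, and *Ankrd37* 0.746 on all and 0.05 without them.

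**Figure D4:**
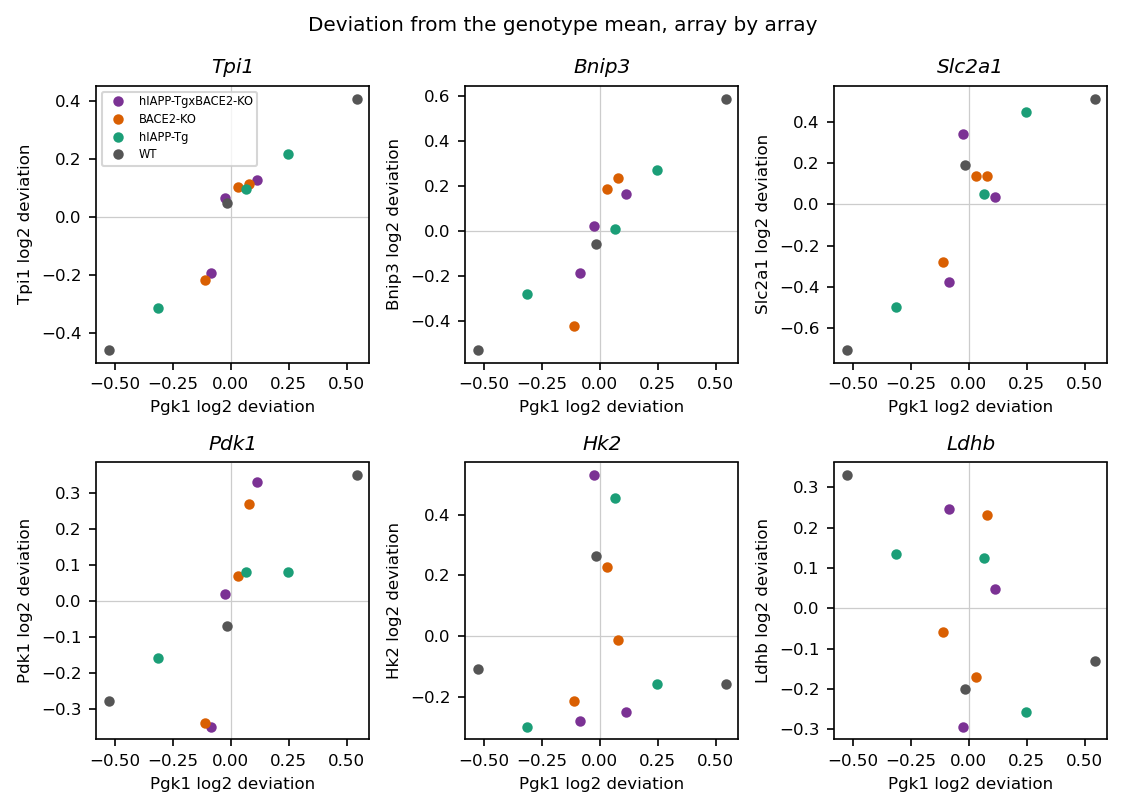
Deviation of 6 genes from their genotype means against that of *Pgk1*, in log2 units, 1 point per array, coloured by genotype. *Tpi1*, *Bnip3*, *Slc2a1* and *Pdk1* line up with *Pgk1* (r from 0.752 to 0.957), *Hk2* does not (r = 0.07) and *Ldhb* lies the other way (r = -0.52).

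Other genes of the set did not share the pattern. *Hif1a* itself had an r of -0.02 with *Pgk1*, *Car9* -0.07, *Pfkm* -0.12, *Hk2* 0.07 and *Pdha1* 0.03. The lowest were *Pfkfb2* at -0.44 and *Ldhb* at -0.52 (exact permutation p = 0.201, adjusted p = 0.996). *Hk2* and *Pfkm*, the genes with the smallest p-values between genotypes, were not among those that followed *Pgk1*, while *Higd1a* had an intermediate r of 0.57. Over all 528 pairs of the 33 genes the median r was 0.25 and 20.8% of pairs were over 0.7, against 0.02 and 3.51% over all pairs of tested genes. These r values share arrays and normalization, and pairs of genes are not independent.

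**Figure D5:**
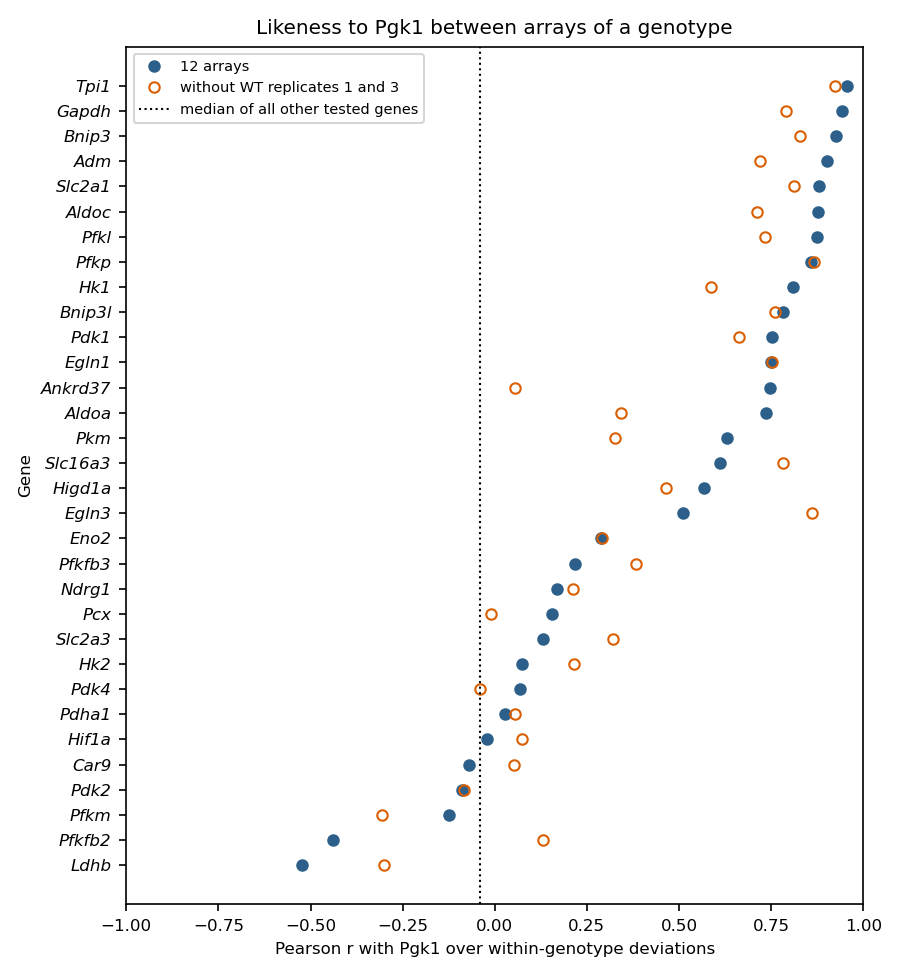
Pearson r of 32 genes with *Pgk1* over deviations from the genotype mean, on all 12 arrays (filled) and without WT replicates 1 and 3 (open); the dotted line is the median of all other tested genes (-0.04). *Tpi1* is at the top (0.957) and *Ldhb* at the bottom (-0.52), and *Ankrd37* is among the genes that shift most between the open and filled points.

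Acinar enzyme genes lay the other way from *Pgk1* in 3 of the 4 genotypes. The mean of 9 acinar markers was 11.17, 10.84 and 10.24 in hIAPP-TgxBACE2-KO islets, 11.77, 11.33 and 10.48 in BACE2-KO islets, 11.21, 10.40 and 11.10 in hIAPP-Tg islets and 12.05, 11.57 and 9.65 in WT islets. It was highest on the array with the lowest *Pgk1* in WT and hIAPP-TgxBACE2-KO, and lowest on the array with the highest *Pgk1* in WT, hIAPP-Tg and hIAPP-TgxBACE2-KO. In BACE2-KO islets it was highest on replicate 1, the array with the highest *Pgk1*. Over the 12 deviations, r was -0.793 (exact permutation p = 0.0386) and rho -0.552 (exact permutation p = 0.142), with an adjusted p for r of 0.347 over the 9 marker lists examined. Without WT replicate 3 and BACE2-KO replicate 3, the arrays farthest from the median of the marker mean's deviations, r was -0.681. For this marker mean, r was not computed without WT replicates 1 and 3, the arrays farthest from the median for *Pgk1*. The r of the other lists, for beta, alpha, delta, duct, endothelial and stellate cells, macrophages and immediate early genes, ran from -0.32 to 0.41. With the acinar marker mean as a covariate, a setting chosen after the values had been seen, the median r of the 32 genes was 0.33 and 4 of the 9 genes stayed over 0.8, *Tpi1* (0.905), *Gapdh* (0.846), *Bnip3* (0.811) and *Pfkp*, with none added. *Slc2a1* had 0.790 and *Adm* 0.779. The number over 0.8 with 1 array left out ran from 6 (without WT replicate 3, of which 5 were among the 9) to 11.

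Promoters of the set were searched because so many of its genes moved together. In RefSeq sequence of mouse build GRCm38.p6, the 250 bases before each gene's start were searched for the core of the hypoxia response element, to which HIF-1 binds, ACGTG or GCGTG on either strand, overlapping matches included (CACGTG matches on both strands). Of the 37 genes 34 had a promoter in the table, and *Slc2a3*, *Bnip3l* and *Ndrg1* did not. Of their 50 windows, 40 held a match (80.0%), against 38.6% of 32841 windows over all genes; the base composition of the windows was not matched. Windows are not separate promoters: 8 of the 50, in 4 genes, overlap another window of the gene and can hold the same match. Counted once per gene, 31 of the 34 genes had a match in any window (91.2%), against 41.5% of 27018 genes. The set holds known HIF-1 targets by its choice, so these higher shares are not a separate finding about these islets. The median r with *Pgk1* was 0.61 for the 27 measured genes with a match, and only 2 measured genes had none, *Tpi1* at 0.957 and *Eno2* at 0.289, too few to compare. A match is a description of letters and not a site that was shown to be bound. Shown are *Pgk1* itself (chrX:106186850-106187099, plus strand), with 2 matches, *Bnip3* (chr7:138909507-138909756, minus strand), with 5, *Tpi1* (chr6:124814159-124814408, minus strand), closest to *Pgk1* and with none, and *Higd1a* (chr9:121857797-121858046, minus strand), whose hIAPP-TgxBACE2-KO arrays lay above all others, with 2 that overlap. Each is written 5′ to 3′ on the gene's strand, ending just before the start, with matches in capitals.
Pgk1: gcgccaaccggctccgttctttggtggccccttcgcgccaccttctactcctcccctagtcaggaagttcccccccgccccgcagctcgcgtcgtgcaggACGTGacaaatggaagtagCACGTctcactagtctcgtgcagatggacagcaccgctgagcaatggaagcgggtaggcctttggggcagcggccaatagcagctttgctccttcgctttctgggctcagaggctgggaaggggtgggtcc
Bnip3: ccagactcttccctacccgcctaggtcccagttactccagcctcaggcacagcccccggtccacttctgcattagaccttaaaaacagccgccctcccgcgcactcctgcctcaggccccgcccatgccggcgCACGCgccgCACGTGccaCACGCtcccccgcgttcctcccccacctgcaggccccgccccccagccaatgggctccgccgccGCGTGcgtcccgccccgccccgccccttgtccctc
Tpi1: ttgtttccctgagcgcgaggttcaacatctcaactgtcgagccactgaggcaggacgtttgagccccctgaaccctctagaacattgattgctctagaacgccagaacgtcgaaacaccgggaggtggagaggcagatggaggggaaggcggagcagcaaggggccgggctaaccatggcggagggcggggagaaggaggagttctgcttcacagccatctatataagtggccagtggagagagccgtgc
Higd1a: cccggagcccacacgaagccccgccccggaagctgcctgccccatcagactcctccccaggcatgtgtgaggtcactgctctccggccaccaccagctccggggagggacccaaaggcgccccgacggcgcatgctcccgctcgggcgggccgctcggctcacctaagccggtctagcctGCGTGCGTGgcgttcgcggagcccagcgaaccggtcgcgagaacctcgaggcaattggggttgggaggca

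Genes of the same pathways outside the set lay on both sides with the transgene. Of 134 listed genes (glycolysis and glucose transport, pyruvate metabolism, NADH shuttles, citric acid cycle, pentose phosphate pathway, oxygen sensing, hypoxia targets and glucose-responsive genes of the factor ChREBP) 113 were tested. In hIAPP-Tg against WT 45 were higher and 67 lower (median -0.03, as over all genes), and in hIAPP-TgxBACE2-KO against BACE2-KO 52 were higher and 60 lower (-0.01). BACE2-KO was higher than WT for 66 and lower for 46 (0.03), and hIAPP-TgxBACE2-KO higher than hIAPP-Tg for 73 and lower for 40 (0.06). The other genes of glycolysis and glucose transport had 6 higher and 17 lower in hIAPP-Tg against WT (median -0.08), and the other hypoxia targets 17 higher and 15 lower (0.02). In BACE2-KO against WT the former had 11 higher and 11 lower (0), the latter 22 and 10 (0.065). For hIAPP-TgxBACE2-KO against hIAPP-Tg the counts were 18 and 5 (0.09), and 22 and 10 (0.20, beside 0.03 over all genes). Against BACE2-KO they were 11 and 12 (-0.02), and 20 and 12 (0.05). The difference between these genes and the set was not tested. Of the 113, 1 was called in any comparison, for BACE2 loss averaged over transgene status; that share, 0.885%, is near the 0.92% of all genes called there. *Me1*, malic enzyme, which makes NADPH while turning malate into pyruvate, was 8.59, 8.73 and 8.64 in hIAPP-TgxBACE2-KO islets, 8.76, 8.63 and 8.65 in BACE2-KO islets, 8.35, 8.34 and 8.39 in hIAPP-Tg islets and 8.38, 8.52 and 8.40 in WT islets. All 6 arrays without BACE2 lay above all 6 with it. *Me1* rose by 0.27 with BACE2 loss averaged over transgene status (SE 0.05, limma adjusted p = 0.0362). Of 20 other settings, 6 kept the call, and the adjusted p ran from 0.0260 to 0.221; only 1 of the 12 fits that leave out an array kept it, that without hIAPP-TgxBACE2-KO replicate 1. The difference was 0.25 to 0.29 over those 12 fits, and the mean of its probe sets gave 0.18. *Mlxipl*, which encodes ChREBP, was 0.46 lower there and did not pass (SE 0.10, limma adjusted p = 0.0659).

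Several hypoxia targets outside the set followed *Pgk1* between arrays. *Fam162a*, a HIF-1 target of mitochondria, had r = 0.972, the cytokine gene *Mif* 0.941, and *Ak4*, a mitochondrial adenylate kinase, 0.887. *Ak4* was 5.99, 6.95 and 7.02 in hIAPP-TgxBACE2-KO islets, 7.05, 5.57 and 7.16 in BACE2-KO islets, 6.07, 6.81 and 5.49 in hIAPP-Tg islets and 4.67, 6.44 and 7.32 in WT islets, so that the WT arrays spanned the whole range of the 12. *Pgm1*, which links glycogen to glycolysis, had r = 0.951, while *Ldha*, the lactate dehydrogenase that beta cells hold low, had 0.705. *Mlxipl* lay the other way at -0.75, as did *Txnip*, a ChREBP target, at -0.55. These are descriptions over the same 12 arrays, chosen from 113 genes for their r.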

How the data were processed

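The 12 arrays (Affymetrix, biotinylated cRNA) were grouped by their titles. The authors' deposited log2 values came, per the submitters' processing notes, from RMA and affy. Versions and a genome build are not stated there, so positions come from RefSeq (GRCm38.p6). Of 45141 probe sets, 28898 had 1 symbol, 551 several and 15692 were not listed in the annotation. At most 2.22% of values were equal between any 2 arrays. Array data hold no read depth; the number of arrays limits the precision.

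The brightest probe set stood for a gene, and the lowest 25% of genes by mean level (cutoff log2 3.43) were left out. A mean per genotype was fitted to all 12 arrays with limma 3.58.1 (R 4.3.3, eBayes with a variance trend), with Benjamini-Hochberg adjustment over 12825 genes and a call under 0.05. Steps were tested on simulated data. Likeness to *Pgk1* used deviations from the genotype mean and exact permutations within genotypes. Genes given array by array were any called, the 3 smallest p-values per comparison, those whose probe sets disagree, and those that separated groups or led the likeness to *Pgk1*; the last 2 kinds were chosen after their values were seen. The members, lists and tests were chosen with earlier results of these data known. Alternatives were filters, probe set means, quantile normalization, no trend, fewer groups, a replicate block, array weights, an acinar covariate, a looser threshold and leaving out each array.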

Additional observations from a re-analysis of the deposited data

How the results depend on the processing

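No member of the set was called in any of the 151 alternative fits and comparisons. The genes called overall moved more. With a filter at the 50th percentile, 1 gene was called for hIAPP-Tg against WT (2 in the fit reported), 6 for BACE2-KO against WT (16), 0 for the transgene averaged over BACE2 status (1) and 0 for the interaction (1); at an unadjusted p under 0.05 the reported fits had 973 and 308 genes in those last 2. With only the groups compared, 9 were called for BACE2-KO against WT and 3 for hIAPP-TgxBACE2-KO against hIAPP-Tg (13). Array weights gave 36 for BACE2-KO against WT. At an adjusted p under 0.10, limma called 27 for hIAPP-TgxBACE2-KO against hIAPP-Tg, 192 for BACE2 loss averaged over transgene status (118) and 2 for the interaction. With 1 array left out, the counts ran from 1 to 3 for hIAPP-Tg against WT, 5 to 16 for BACE2-KO against WT, 4 to 17 for hIAPP-TgxBACE2-KO against hIAPP-Tg, 46 to 108 for BACE2 loss, 1 to 2 for the transgene and 1 to 2 for the interaction, the lowest for BACE2 loss without WT replicate 1 or 2. With replicate number as a block, 29 were called for hIAPP-TgxBACE2-KO against hIAPP-Tg and 205 for BACE2 loss. The labels do not say that numbers pair arrays, so the numbers were not taken as pairs. Of 18 same-numbered pairs, 10 had a correlation of deviations over 0.1 (range -0.129 to 0.372). Their median was 0.141, against -0.070 for pairs with different numbers. Whether arrays with the same number share a source of variation was not tested.

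The median difference over the members moved by more than its spread in 1 case, the interaction, which ran from -0.14 (without WT replicate 3) to 0.14 (without WT replicate 1). The *Slc2a3* interaction turned to -0.12 with the mean of its probe sets and ran from -0.0033 (without hIAPP-TgxBACE2-KO replicate 3) to 0.38 (without hIAPP-TgxBACE2-KO replicate 2). The other 486 alternative values of single members kept their direction and stayed short of the threshold. They cover only members in the comparisons where they had the smallest p-values or disagreeing probe sets. Those were picked from the same data, so the kept directions do not show how stable the other members are. With the acinar covariate, 4 genes had an r over 0.8 with *Pgk1* (9 reported) and the median r was 0.33 (0.59 reported), and with 1 array left out 6 to 11. The cause of these shifts was not tested.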
